A study of Rattus norvegicus with 9 samples.

Results

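Small leucine-rich proteoglycans are secreted proteins of the connective tissue matrix, and 5 of their genes were followed here: Ogn, Dcn, Lum, Fmod and Bgn. Their members were every probe set to which the array's annotation gives 1 of these symbols alone. That gave 8 probe sets of 31042, 4 for Ogn and 1 each for Dcn, Lum, Fmod and Bgn, or 5 of the 14217 genes named on the array. Expression was measured in the hypothalamus of 9 male rats aged 13 weeks, 1 array per rat. Of these, 4 ate an instant noodle diet with its seasonings and 5, the controls, the same diet without seasonings. Noodles made up 30% of the weight of both diets and fat gave 26% of the energy. Feeding lasted 30 days by one label and 4 weeks by another, with intake paired between diets, near 60 g/kg/day. No strain is named in the sources used here. The treatment label reads the same for both groups, and only the design text tells them apart.

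Proteins of this family carry a curved core of leucine-rich repeats that binds collagen, and most also carry sugar chains. Decorin (Dcn) and biglycan (Bgn) bear chondroitin or dermatan sulphate, while lumican (Lum) and fibromodulin (Fmod) bear keratan sulphate, and osteoglycin (Ogn) is a shorter relative. They set the thickness and spacing of collagen fibrils, and decorin and biglycan also bind growth factors and receptors. In the brain they are known mainly from fibroblasts of the meninges and of the larger vessels rather than from the nerve tissue itself.

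The family lies in short runs of neighbouring genes. In the rat gene table (assembly GRCr8, used for gene order only), Ogn is followed by Omd, Aspn and Ecm2, Dcn is followed by Lum, Kera and Epyc, and Fmod is preceded by Prelp and Optc. Promoter sequence from RefSeq (build GRCr8) was matched for 3 of the 5 members, Ogn, Lum and Fmod. The 250 bases before the start site are shown to set beside the values, in which these 3 genes gave the rats nearly the same order. Capitals mark matches on either strand to 4 motifs: the TATA motif, TATAAA, the GC box, GGGCGG, the CCAAT box, searched as those letters, and the E-box, CANNTG, where N is any base.
Ogn, chr17:15258996-15259245, minus strand: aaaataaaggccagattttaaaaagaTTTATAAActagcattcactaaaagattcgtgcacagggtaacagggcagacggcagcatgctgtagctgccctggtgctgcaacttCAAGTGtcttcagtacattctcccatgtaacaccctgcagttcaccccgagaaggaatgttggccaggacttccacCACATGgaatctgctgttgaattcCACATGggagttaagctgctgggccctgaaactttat
Lum, chr7:34245456-34245705, plus strand: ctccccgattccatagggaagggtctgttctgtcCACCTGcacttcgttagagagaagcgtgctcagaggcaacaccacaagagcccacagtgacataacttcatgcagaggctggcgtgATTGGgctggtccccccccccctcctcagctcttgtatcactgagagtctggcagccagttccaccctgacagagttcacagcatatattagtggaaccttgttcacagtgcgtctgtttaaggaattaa
Fmod, chr13:48045317-48045566, plus strand: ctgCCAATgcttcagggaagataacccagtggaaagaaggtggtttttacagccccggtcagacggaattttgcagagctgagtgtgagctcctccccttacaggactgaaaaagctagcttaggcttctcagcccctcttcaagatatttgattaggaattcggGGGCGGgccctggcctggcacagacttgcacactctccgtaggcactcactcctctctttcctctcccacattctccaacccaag

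No motif was held by all 3 windows. Ogn held CANNTG at 3 places, first bases -137, -61 and -37 from the start, and overlapping TATAAA matches on both strands at -224 and -222. Lum held CANNTG at -216 and CCAAT at -130. Fmod held CCAAT at -247 and GGGCGG at -85. CANNTG was held by 65.5% of the 33469 windows listed, CCAAT by 34.0%, GGGCGG by 30.5% and TATAAA by 12.9%. A match describes the letters only.

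Values are deposited log2 values, and a level can be compared between rats for 1 probe set but not between probe sets. Most probe sets of this table hardly move between animals: 1223 of 31042 (3.94%) range over more than 0.05 log2 units, a limit also used below. All 8 member probe sets passed it, with ranges from 0.63 (Fmod) to 2.15 (Ogn 1385248_a_at), and 387 probe sets on the array ranged at least as widely as Fmod. The hypothalamic peptide genes Pmch, Hcrt and Avp stood at 11.85 to 12.37, 8.75 to 10.05 and 10.49 to 11.84. With no other tissue on these arrays, such levels do not test the tissue label. In these bulk samples fewer cells of a type and less RNA per cell cannot be told apart.

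Osteoglycin, known from bone and other connective tissue, was high in 5 rats and low in 4 on each of its 4 probe sets. On probe set 1376749_at, Ogn stood at 8.71, 7.13, 6.92 and 7.89 in noodle-diet rats 1, 4, 7 and 13. It stood at 8.13, 7.99, 8.33, 6.80 and 6.82 in control rats 2, 5, 8, 11 and 14. The 5 high rats came from both diets, 2 of 4 on the noodle diet and 3 of 5 controls, and the diets overlapped throughout. The empty stretch between 7.13 and 7.89 took up 40.0% of the range of this probe set, and the like gap took 27.1%, 37.4% and 31.1% on the others. Probe set 1383263_at gave 8.58, 7.13, 6.90 and 7.65 in the noodle-diet rats and 8.14, 7.97, 8.31, 6.86 and 6.64 in the controls. Probe sets 1385248_a_at and 1390450_a_at ran from 5.55 to 7.70 and from 5.67 to 7.22. All 4 probe sets put the rats in the order noodle 1, control 8, control 2, control 5, noodle 13, noodle 4 and noodle 7, and only the last places, of control rats 11 and 14, changed. Of the 36 pairs of rats, any 2 Ogn probe sets ordered at least 35 alike. Around each probe set's mean, the 4 deviations of 1 rat lay within 0.076 (control 5) to 0.40 (control 8) of each other, against ranges between rats of 1.55 to 2.15.

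Lumican, a keratan sulphate proteoglycan of collagenous tissues, was set apart by 1 rat. Lum stood at 7.66, 6.97, 6.89 and 6.96 in noodle-diet rats 1, 4, 7 and 13, and at 7.06, 7.003, 7.25, 6.70 and 6.78 in control rats 2, 5, 8, 11 and 14. Noodle-diet rat 1 was highest and control rat 11 lowest, and the other 7 rats lay between 6.78 and 7.25 without a wide gap.

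Fibromodulin, which binds fibrillar collagen beside lumican, moved least. Fmod stood at 7.28, 6.93, 6.76 and 7.02 in the noodle-diet rats and at 7.19, 7.15, 7.30, 6.82 and 6.67 in the controls, with rats listed as before. Its order from the top was control 8, noodle 1, control 2, control 5 and noodle 13, the same 5 rats as for Ogn, with no gap wider than 20.8% of its range between sets of at least 3 rats.

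Biglycan, the class I member that can also signal through Toll-like receptors, followed that order as well. Bgn stood at 7.78, 7.05, 6.86 and 7.17 in the noodle-diet rats and at 7.63, 7.42, 7.89, 6.80 and 6.92 in the controls. Its 5 highest rats were again control 8, noodle 1, control 2, control 5 and noodle 13. With at least 3 rats on each side, its widest gap, 23.0% of its range, lay between control 5 and noodle 13, as for Fmod.

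Decorin, the other class I member and a binder of transforming growth factor beta, gave a different order. Dcn stood at 8.23, 7.46, 7.26 and 7.58 in the noodle-diet rats and at 7.20, 7.48, 7.89, 7.29 and 7.17 in the controls. Noodle-diet rat 1 and control rat 8 were high, as for the other members. Control rat 2, below only those 2 rats in Ogn, Lum, Fmod and Bgn, was above only control rat 14 in Dcn.

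**Figure D1:**
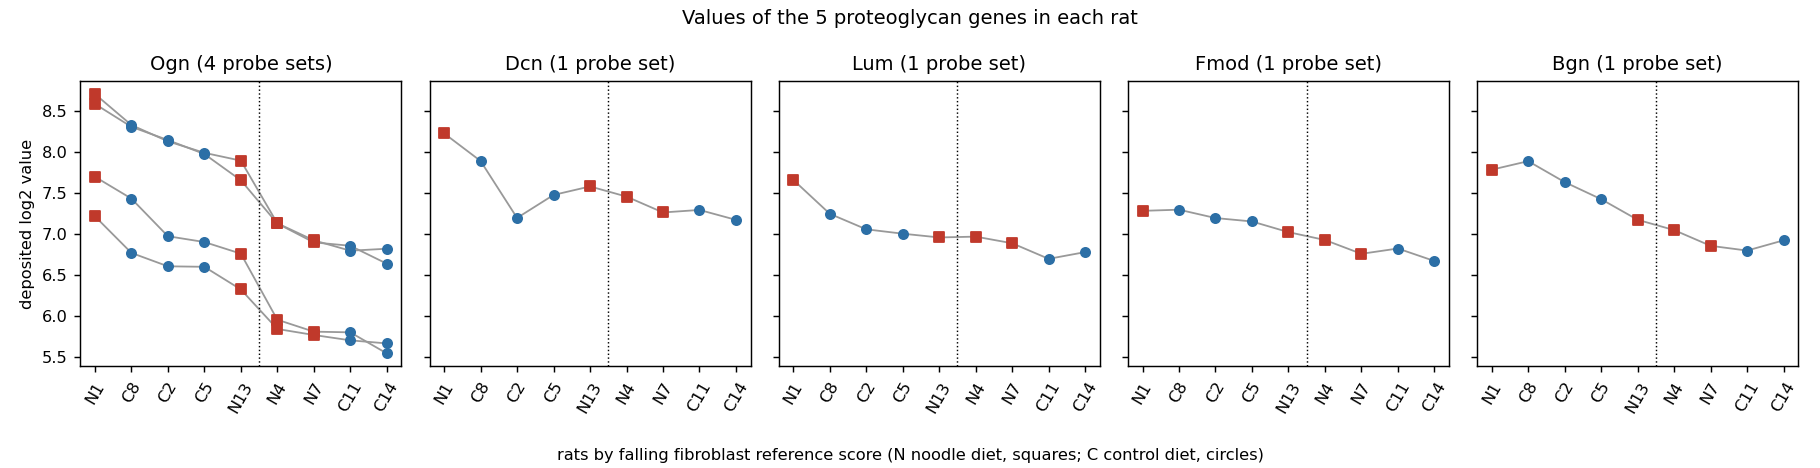
Deposited log2 values (vertical axis) of the 5 genes in each of 9 rats, ordered along the horizontal axis by falling fibroblast reference score, with squares for the noodle diet (N and the rat's number) and circles for the control diet (C). Grey lines join the values of 1 probe set, and the dotted line marks the gap in the score: Ogn drops across it, from 7.89 in N13 to 7.13 in N4 on probe set 1376749_at, while Dcn has its second lowest value, 7.20, in C2 on the left of it.

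To place the members against fibroblasts, a reference score was taken from genes that are no member. The list held 28 fibroblast and meningeal genes, of which 25 were measured and 20 ranged over more than 0.05. The score is the mean deviation of those 20 genes from their mean over the 9 rats, in log2 units. It stood at 0.48, -0.30, -0.37 and 0.086 in noodle-diet rats 1, 4, 7 and 13 and at 0.33, 0.20, 0.38, -0.39 and -0.42 in control rats 2, 5, 8, 11 and 14. The same 5 rats as for Ogn lay above a gap of 42.9% of the range. Separate clusters were taken to be present where such a gap, with at least 3 rats on each side, exceeded 33.3% of the range, a limit set after the values were seen. By it the fibroblast score and Ogn (34.2% for the mean of its 4 probe sets) fall into clusters of 5 and 4 rats, so no pooled correlation is printed for either, and clusters of that size cannot be tested within themselves. The widest ranges in the reference were those of the transporter genes Slc13a4, 6.24 to 8.40, and Slc22a6, 5.75 to 7.44, the growth factor gene Igf2, 7.99 to 9.65, and the collagen gene Col1a2, 7.59 to 9.005.

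Members were therefore compared with the score by how they ordered pairs of rats. Across the gap there are 20 pairs of 1 high and 1 low rat. Each Ogn probe set, Fmod and Bgn ordered all 20 as the score did, Lum 19 and Dcn 17. Within the sets there are 16 pairs, of which Ogn ordered 15 or 16, Lum 15, Fmod 14, Bgn 13 and Dcn 12. In all, Dcn ordered 29 of 36 pairs as the score did, against 33 for Bgn, 34 for Lum and for Fmod and at least 35 for Ogn. Without control rat 2 Dcn ordered 26 of the remaining 28 pairs, and without any other single rat 21 to 23.

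That rat carries most of the departure of Dcn. Between control rat 2 and noodle-diet rat 4, the nearest noodle-diet rat below the gap, the 4 Ogn probe sets differed by 0.76 to 1.02 upwards, Bgn by 0.58, Fmod by 0.27 and Lum by 0.089, and Dcn by -0.26. Between noodle-diet rat 13, the lowest above the gap, and noodle-diet rat 4, the Ogn probe sets differed by 0.48 to 0.81 upwards. Bgn there differed by 0.13, Dcn by 0.12, Fmod by 0.096 and Lum by -0.010. In departing from the score across the gap, Dcn was not alone among matrix genes. Of the 20 reference genes, each held against the score of the other 19, 17 ordered every pair across the gap as it did. The exceptions were Mgp, matrix Gla protein, with 17 of 20 pairs, Pcolce, the procollagen C-endopeptidase enhancer, with 19, and Cdh11, a cadherin of mesenchymal cells, with 8. Whether Dcn differs from the other members beyond measuring error was not tested, since Dcn has 1 probe set.

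**Figure D2:**
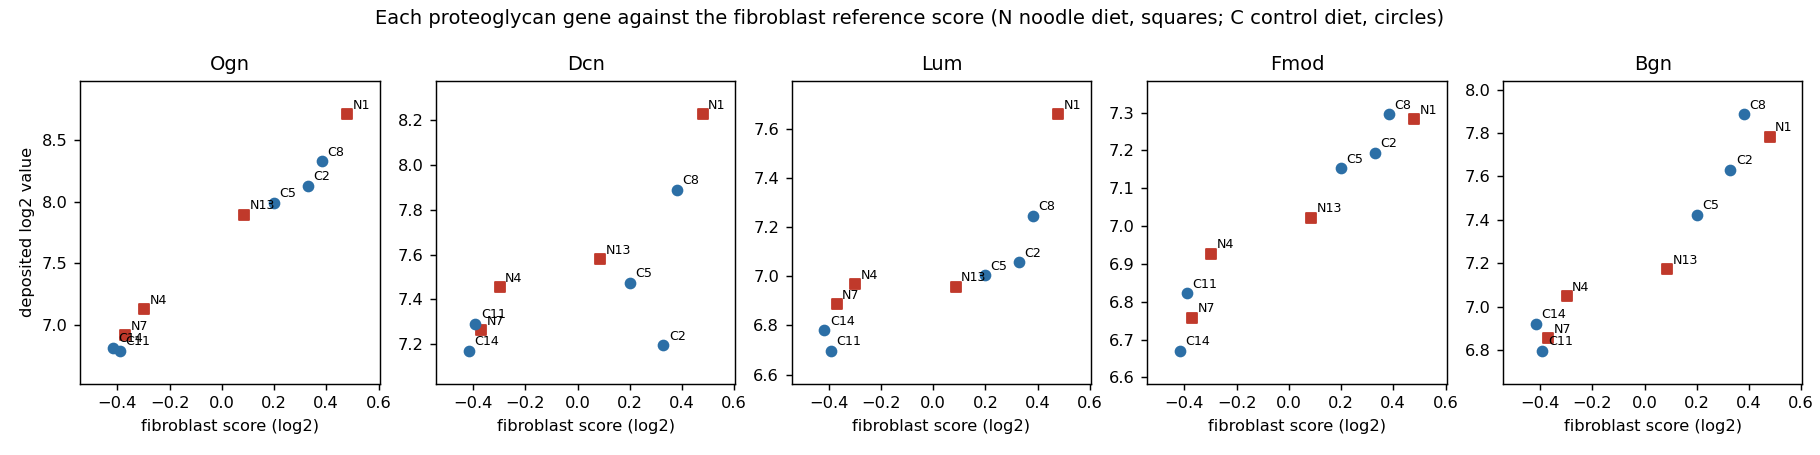
Deposited log2 value of each gene (vertical axes, scaled separately; for Ogn, probe set 1376749_at) against the fibroblast reference score in log2 units (horizontal axes), with 1 point per rat, squares for the noodle diet (N) and circles for the control diet (C). Control rat C2, at a score of 0.33, lies with the high rats for Ogn, Fmod and Bgn and near the bottom for Dcn, and N1 stands apart at 7.66 for Lum.

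Between members without clusters, Fmod and Bgn were the most alike. Pearson's r between them over 9 rats was 0.95 and Spearman's rho 0.93 (exact permutation p = 0.00028 and 0.00075, adjusted 0.0067 and 0.0071), and r was 0.98 without the 2 rats farthest from the median of Fmod, control rats 14 and 8. In all 38 relations were computed, 6 between these 4 genes and 32 with cell type scores, and exact 2-sided p-values were adjusted over the 76 tests of r and rho. Lum with Bgn gave r = 0.83 and rho = 0.95 (adjusted exact permutation p = 0.0071 and 0.0067), and Lum with Fmod 0.80 and 0.92 (adjusted exact permutation p = 0.015 and 0.010). Without the 2 rats farthest from the median of Lum, noodle-diet rat 1 and control rat 8, those values of r were 0.85 and 0.82.

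How closely Dcn followed the others depended on which rats were kept. Dcn with Lum, its neighbour in the genome, gave r = 0.90 but rho = 0.63 (adjusted exact permutation p = 0.015 and 0.11). Without noodle-diet rat 1 and control rat 8 r was 0.36, so its size depended on those rats. Dcn gave r = 0.71 with Fmod and 0.70 with Bgn (adjusted exact permutation p = 0.064 and 0.067), with rho of 0.72 and 0.62 (adjusted exact permutation p = 0.076 and 0.12), and r of 0.41 and 0.14 without the same 2 rats. The values without those 2 rats keep control rat 2, where Dcn departed. With 1 rat left out at a time, r of Dcn ran from 0.72 to 0.96 with Lum, 0.65 to 0.89 with Fmod and 0.61 to 0.90 with Bgn. As deviations from the diet means r was 0.78 with Fmod and 0.80 with Bgn, and both then passed (adjusted exact permutation p = 0.035 for each, over orders within diets).

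Scores of other cell types moved with the members too, and their part in the members' values was not tested. The endothelial and mural list had 17 of 18 genes measured and 3 over 0.05, namely Vtn, at 7.04 to 7.60, Tagln, at 6.89 to 7.42, and Rgs5, at 8.11 to 8.19, while the endothelial gene Cldn5 ranged over 0.0022. Vtn ordered 33 of 36 pairs of rats as the fibroblast score did, Tagln 28 and Rgs5 9. Whether these genes vary apart from the fibroblast genes was not tested. The endothelial and mural score ran from -0.10 to 0.071 in noodle-diet rats and from -0.13 to 0.18 in controls. Bgn followed this score, though not Rgs5 in it, with r = 0.96 and rho = 0.98 (adjusted exact permutation p = 0.00084 and 0.0019). Fmod did so with r = 0.93 and rho = 0.92 (adjusted exact permutation p = 0.0071 and 0.010). Without the 2 farthest rats, control rats 8 and 11, r was 0.95 and 0.98. Lum gave r = 0.73 but rho = 0.93 (adjusted exact permutation p = 0.060 and 0.0071), and Dcn 0.67 and 0.68 (adjusted exact permutation p = 0.083 and 0.085). As deviations from the diet means both passed, Lum with r = 0.83 and Dcn with r = 0.78 (adjusted exact permutation p = 0.011 and 0.035).

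Of the glial scores, Dcn passed the test with those of oligodendrocytes and astrocytes, but not with those of oligodendrocyte precursors or microglia. The oligodendrocyte list, of the cells that make myelin, had 9 of 10 genes measured, all over 0.05, among them Mog at 8.77 to 9.56 and Mobp at 11.53 to 12.27. Its score was lowest in control rat 2, at -0.20, and highest in control rat 8, at 0.37. Dcn gave r = 0.80 and rho = 0.90 with it (adjusted exact permutation p = 0.037 and 0.013), and r = 0.77 without control rat 8 and noodle-diet rat 1. With the same score Lum, Fmod and Bgn gave r of 0.65 to 0.69 (adjusted exact permutation p from 0.077 to 0.093). Without those 2 rats these values lay between 0.18 and 0.39. As a deviation from the diet means Lum passed narrowly, with r = 0.67 (adjusted exact permutation p = 0.0498).

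With the score of the 2 oligodendrocyte precursor genes over 0.05, Pdgfra and Olig1, Bgn passed by r and not by rho, at 0.81 and 0.70 (adjusted exact permutation p = 0.028 and 0.078). Dcn gave r = 0.76, Lum 0.75 and Fmod 0.74 (adjusted exact permutation p = 0.060, 0.060 and 0.059). Without control rat 8 and noodle-diet rat 1 these 4 values of r lay between 0.19 (Dcn) and 0.50 (Lum), so they rest on those rats.

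With the score of the 6 astrocyte genes over 0.05, Dcn gave r = 0.85 and rho = 0.90 (adjusted exact permutation p = 0.015 and 0.013), and r = 0.95 without noodle-diet rat 1 and control rat 5. Lum gave r = 0.77 and rho = 0.77 (adjusted exact permutation p = 0.035 and 0.060), and as a deviation from the diet means it no longer passed, with r = 0.75 (adjusted exact permutation p = 0.073). Fmod gave r = 0.74 and Bgn r = 0.66 (adjusted exact permutation p = 0.067 and 0.093). Of the astrocyte genes Gfap ordered 31 of 36 pairs of rats as the fibroblast score did, Aqp4 25, Aldh1l1 24 and S100b 23. Whether Dcn follows the glial scores more closely than the other members was not tested. With the microglia score the 4 genes gave r from 0.14 (Dcn) to 0.64 (Bgn), with the lowest adjusted exact permutation p at 0.10. The neuron score held 4 of 10 measured genes, the neurofilament genes Nefl, Nefm and Nefh, and Gad1. With it r lay between -0.73 (Fmod) and -0.19 (Dcn), and rho of Fmod was -0.82 (adjusted exact permutation p = 0.037). Nefl, Nefm and Nefh ordered 9, 13 and 13 of 36 pairs of rats as the fibroblast score did, and Gad1 17. With the score of 4 ependymal and tanycyte genes, of the cells that line the ventricle, Fmod passed by r and by rho, at 0.81 and 0.80 (adjusted exact permutation p = 0.033 and 0.046). Lum and Bgn, each with r = 0.80, passed by r alone (adjusted exact permutation p = 0.035 and 0.036), with rho of 0.73 for each (adjusted exact permutation p = 0.067). Dcn gave r = 0.59 (adjusted exact permutation p = 0.12). Without noodle-diet rat 1 and control rat 2, r was 0.81 for Fmod, 0.58 for Lum and 0.73 for Bgn. The 4 genes of this score did not move alike. Rarres2, at 7.35 to 8.35, ranged most widely and ordered 35 of 36 pairs of rats as the fibroblast score did. Crym, at 8.76 to 9.35, ordered 26, Tmem212, at 7.63 to 7.80, 16 and Dynlrb2, at 8.27 to 8.68, 15. Dynlrb2 was highest in noodle-diet rat 7, where Fmod stood at 6.76. Whether each of these genes alone follows the members was not tested. With the pituitary score, of the anterior pituitary and pars tuberalis genes Tshb and Cga (2 of 9 measured), r lay between -0.28 (Bgn) and 0.085 (Dcn). The choroid plexus score, of Ttr and Prlr, fell into clusters of 5 and 4 rats as well. Noodle-diet rat 4 lay above its gap in place of control rat 5. These genes did not move alike: Ttr, at 5.68 to 7.67, was lowest in noodle-diet rat 7, where Prlr, at 7.07 to 7.43, was highest. No border macrophage marker ranged over more than 0.05.

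**Figure D3:**
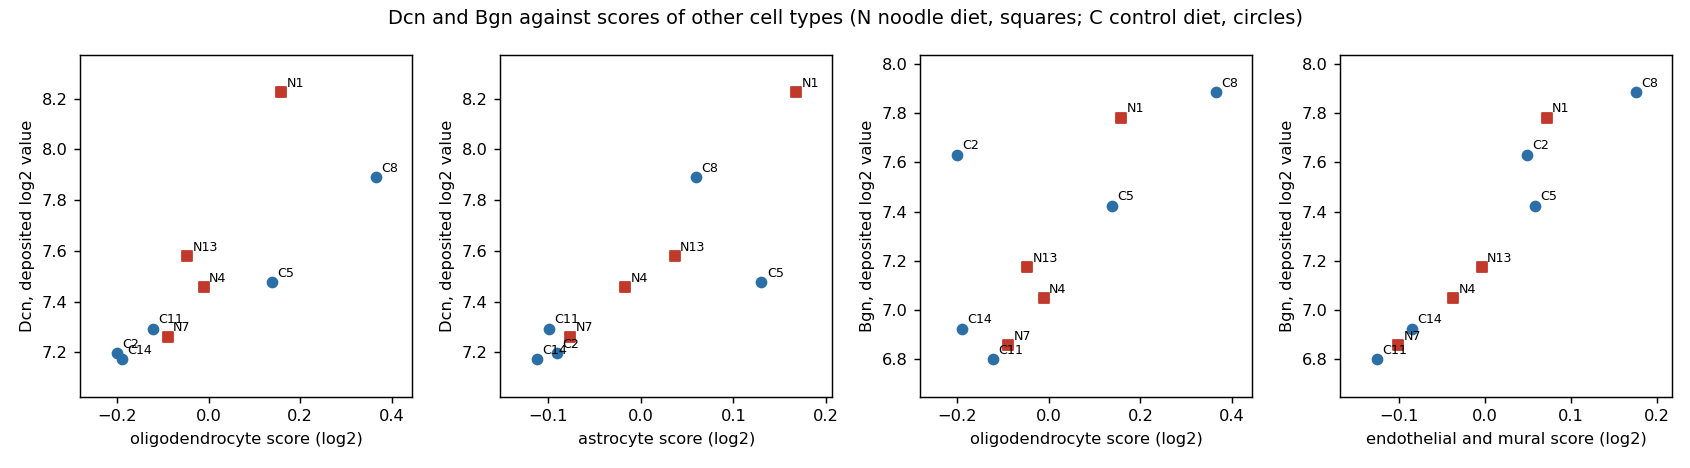
Deposited log2 value of Dcn (left 2 panels) and Bgn (right 2 panels) against scores of oligodendrocyte, astrocyte, and endothelial and mural genes, in log2 units on the horizontal axes, with 1 point per rat, squares for the noodle diet (N) and circles for the control diet (C). C2 lies at the low end for Dcn on both glial scores and stands off the other rats for Bgn on the oligodendrocyte score (-0.20, with Bgn at 7.63).

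For each member the 5 genes of highest and the 3 of lowest Pearson's r over the 9 rats were named, from 838 genes over 0.05 that are no member. These values of r were picked for their size and are descriptions with no test. For Ogn the genes are named by that rank alone, with no r printed because of its clusters. The gap junction gene Gjb2 was among its 5 on all 4 probe sets and the fibronectin gene Fn1 on 3. Gjb2 stood at 8.43, 7.31, 7.19 and 7.84 on the noodle diet and at 8.12, 7.90, 8.15, 7.13 and 7.09 in controls, and it put all 36 pairs of rats in the order of the fibroblast score, of which it is a part. Colec12, Aldh1a2, which makes retinoic acid, and the transporter gene Slc6a20a completed the 5 of probe set 1376749_at. Col1a2, Serping1, Anxa2, Timp3, Coch and Igfbp2 were named on other Ogn probe sets.

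For Fmod the 5 genes were Cpxm2, Fgl2, S100a10, Aebp1 and Col1a2, with r from 0.978 to 0.987. For Bgn they were Nt5e, Mfap5, a microfibril protein, Igfbp6, Sfrp1, a secreted Wnt antagonist, and Ifitm2, from 0.978 to 0.988. For Lum they were Serpinh1, the collagen chaperone of the endoplasmic reticulum, Ifitm3, Mpzl2, Elovl5 and LOC100910973, from 0.933 to 0.969. Serpinh1 shared the lone high rat of Lum, with 8.79 in noodle-diet rat 1 and 8.35 to 8.57 in the others.

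The genes most like Dcn were Ctnna1, Cd164, Aspa, Rnf13 and Cd9, with r from 0.919 to 0.967. None of these 5 is in the fibroblast list, nor is any of the 5 of Lum or of Bgn, and of the 5 of Fmod only Col1a2 is. The 5 of Dcn ordered 26 to 29 of 36 pairs of rats as the fibroblast score did. Those of Lum ordered 30 to 36, of Bgn 31 to 36 and of Fmod 33 to 36. As the genes were picked for likeness to each member, these counts are no separate support. Aspa, aspartoacylase, is known from oligodendrocytes, and Cd9 is a tetraspanin of myelin and of many other cells. Aspa stood at 7.88 in noodle-diet rat 1, 7.85 in control rat 8 and 7.49 in control rat 2, its lowest value. Cd9 likewise was lowest in control rat 2, at 9.82, and highest in noodle-diet rat 1, at 10.24. At the other end, Cygb and Got1 were among the 3 lowest on all 4 Ogn probe sets, with Apeg3 on 3 and Sncb on 1. Cygb and Sncb were also among the 3 lowest for Fmod, with Vsnl1 (r from -0.89 to -0.86). They were so for Bgn too, where Apeg3 was the lowest (r from -0.93 to -0.85). Acot7, Apeg3 and Snhg11 were lowest for Lum (r from -0.93 to -0.88), and Nell1, Cdh22 and Podxl2 ran opposite to Dcn (r from -0.92 to -0.86).

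Of the other small leucine-rich proteoglycan genes, 10 of 13 were measured and 2 ranged over more than 0.05, both near Ogn in the genome. Omd, osteomodulin, stood at 6.80, 5.91, 5.87 and 6.42 in noodle-diet rats 1, 4, 7 and 13 and at 6.56, 6.50, 6.88, 5.69 and 5.78 in control rats 2, 5, 8, 11 and 14. It had the same 5 high rats as Ogn and ordered 34 of 36 pairs as the fibroblast score did. Ecm2 stood at 6.83, 6.24, 6.39 and 6.36 and at 6.50, 6.51, 6.72, 6.27 and 6.39, with 28 of 36 pairs. Aspn, asporin, lies between them, and its 2 probe sets ranged over 0.00064 and 0.00074. Prelp and Optc, beside Fmod, ranged over 0.00040 and 0.00041. Values that move so little between rats say nothing of whether those transcripts followed the others.

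**Figure D4:**
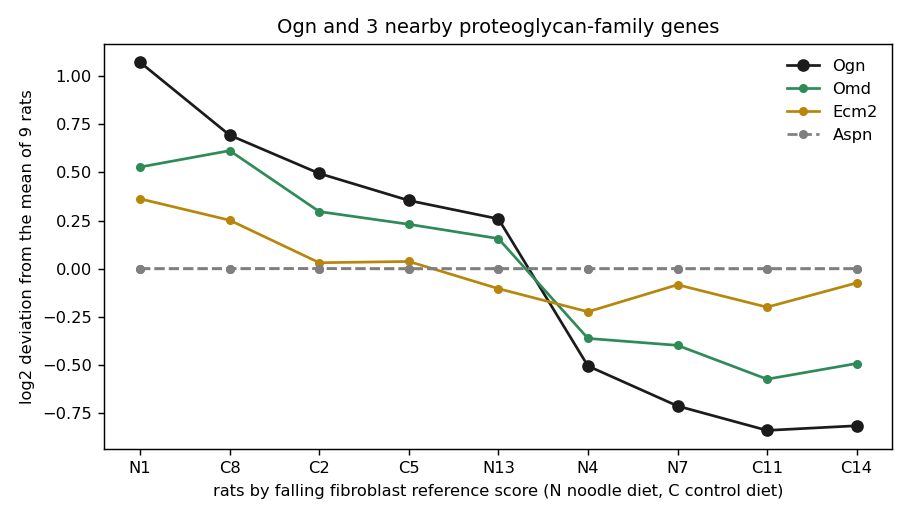
Deviation from the mean of the 9 rats in log2 units (vertical axis) of Ogn (probe set 1376749_at), Omd, Ecm2 and both Aspn probe sets, with rats ordered by falling fibroblast reference score (N noodle diet, C control diet) and lines joining the values of 1 probe set. Omd falls with Ogn between N13 (6.42) and N4 (5.91), and the Aspn probe sets lie flat, with ranges of 0.00064 and 0.00074.

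Most genes that build, process or bind these proteins could not be followed, since few of their probe sets moved. Of 21 measured genes of glycosaminoglycan chain synthesis 1 ranged over more than 0.05, the keratan sulphate sulphotransferase gene Chst1, at 8.86 to 8.95. Of 11 measured genes of fibril processing and cross-linking it was Serpinh1 alone. Of 17 measured growth factors and receptors tied to the proteoglycans it was Bmp4, at 6.82 to 7.41, which ordered 31 of 36 pairs of rats as the fibroblast score did. Of 13 proteases and inhibitors 4 did: Timp1, at 6.81 to 7.68, Mmp14, at 7.19 to 7.89, Timp3, at 9.02 to 9.46, and Adamts4, at 7.30 to 7.72. The inhibitor gene Timp3 ordered 33 of 36 pairs as the score did, Timp1 31, Mmp14 26 and Adamts4 25. Among 9 lectican and brain matrix genes 2 did. Vcan, versican, at 6.97 to 7.79, was highest in noodle-diet rats 4 and 13 and ordered 21 of 36 pairs, and Hapln2, a link protein of myelinated axons, 30.

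Between the diets the members differed by less than their spread. The comparison asks whether the seasonings alter expression in the hypothalamus. Ogn on probe set 1376749_at measured 7.66 ± 0.81 (SD, n = 4) in noodle-diet rats and 7.61 ± 0.74 (SD, n = 5) in controls, which differ by 0.051 (SE 0.49, 95% interval -1.09 to 1.19). Its other probe sets differed by -0.018, 0.025 and 0.019. Dcn measured 7.63 ± 0.42 against 7.41 ± 0.30 (difference 0.23, SE 0.22, interval -0.30 to 0.75). Lum measured 7.12 ± 0.36 against 6.96 ± 0.22 (difference 0.16, SE 0.18, interval -0.27 to 0.59). Fmod measured 6.997 ± 0.22 against 7.03 ± 0.27 (difference -0.030, SE 0.16, interval -0.40 to 0.34), and Bgn 7.21 ± 0.40 against 7.33 ± 0.46 (difference -0.12, SE 0.28, interval -0.76 to 0.53). These intervals leave room for a change of about 1 log2 unit either way in Ogn and for smaller ones in the others.

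By limma 0 of the 8 probe sets had an adjusted p under 0.05, with 0 of 31042 (0%) over all probe sets. At an unadjusted p under 0.05 there were 0 of 8, and 712 of 31042 (2.29%), of which 0.944% were higher and 1.35% lower on the noodle diet. That count over all probe sets was 16 with arrays centred on a common median and 127 after quantile normalization. In 0 of 8 did the diets' values stand apart without overlap, against 176 of 31042 (0.567%). The exact 2-sided permutation test over all splits of the rats gave p from 0.42 (Dcn) to 0.99 (Ogn 1390450_a_at). The fibroblast score was -0.026 ± 0.39 in noodle-diet rats and 0.021 ± 0.39 in controls.

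The sign of most of these differences hung on single rats. Without noodle-diet rat 1 Lum stood at -0.019, and Ogn at -0.30, -0.36 and -0.29 on probe sets 1376749_at, 1385248_a_at and 1390450_a_at. Bgn turned to 0.0018 without noodle-diet rat 7 and to 0.021 without control rat 8. Fmod turned to 0.050 without noodle-diet rat 7, and to 0.012, 0.0013 and 0.037 without control rats 2, 5 and 8. Ogn 1383263_at turned to 0.13 and 0.21 without noodle-diet rats 4 and 7 and to 0.12, 0.080 and 0.16 without control rats 2, 5 and 8. Without noodle-diet rat 13 Ogn turned to -0.026 (1376749_at) and -0.043 (1385248_a_at). Without control rat 11 those 2 stood at -0.15 and -0.16 and 1390450_a_at at -0.12, and without control rat 14 at -0.15, -0.22 and -0.13. Dcn kept its sign, at 0.027 to 0.35.

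**Figure D5:**
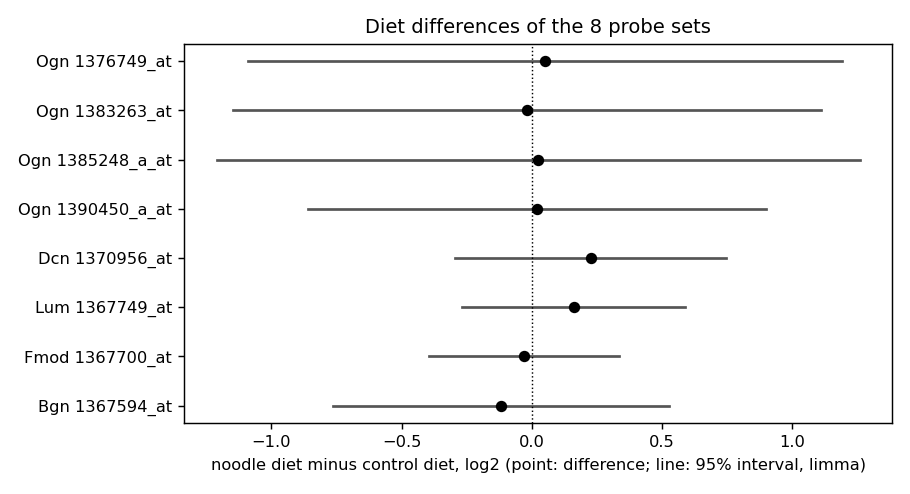
Difference between diets (noodle minus control, log2 units, horizontal axis) of the 8 probe sets, with points for the difference and lines for the 95% interval of limma's fit. Every interval crosses 0, from the narrowest (Fmod, -0.40 to 0.34) to the widest (Ogn 1385248_a_at, -1.21 to 1.26).

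Among the other genes of the matrix 0 passed limma's test over all probe sets. Of the 10 other small leucine-rich proteoglycan genes 2 were higher and 8 lower on the noodle diet, with a median difference of -0.00011, where the median over all probe sets was -4.6e-06. The differences were -0.034 for Omd and -0.021 for Ecm2. Of them Podnl1 had an unadjusted limma p under 0.05 (difference 0.00048, limma adjusted p = 1), on a probe set ranging over 0.00089. Among proteases and inhibitors Adamts5, an aggrecanase, did so (difference 0.00038, limma adjusted p = 1), on a probe set ranging over 0.0010. The other 4 lists held 0 such genes. In glycosaminoglycan synthesis 10 genes were higher and 11 lower, in fibril processing 6 and 5, among proteases and inhibitors 7 and 6, among signalling partners 9 and 8, and among lecticans 5 and 4. Of the 25 fibroblast reference genes 8 were higher and 17 lower, with a median of -0.013. Since most of them rose and fell in the same rats, these are not independent counts. Over all probe sets 14913 were higher and 16129 lower, and most genes counted in the matrix lists hardly moved.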

How the data were processed

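Hypothalamic RNA from 9 rats was measured on Affymetrix arrays, with cRNA made from 100 ng of total RNA, per the labels' protocols. What the authors deposited is a single table with log2 expression for 31099 probe sets. Its scale was read from the range (5.13 to 13.66), and no source used here names the summary or normalization method. Array medians lay between 6.777 and 6.785, and 0 of 36 pairs of columns were identical. Values were used as deposited, without the 57 manufacturer's control probe sets. Groups and rat numbers came from the sample titles. Per the annotation 20826 probe sets carry 1 symbol, 436 several and 9780 none.

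Diets were compared with limma 3.58.1 (R 4.3.3; lmFit, eBayes with an intensity trend) over all 9 rats, 2-sided, with Benjamini-Hochberg adjustment over 31042 probe sets and a threshold of 0.05. P-values measure the spread between these rats. Where a gene of a list has several probe sets, the one of highest mean was used (in scores, of those ranging over more than 0.05, a limit set after the values were seen). Correlations used exact permutation over all 362880 orders (scipy 1.17.1, numpy 2.4.6). Scripts were tested on simulated data. Named genes were all members, the 4 widest-ranging of each list described (some left out here as hardly moving), and the 5 most and 3 least like each member; Podnl1, Adamts5, Pcolce, Mgp, Cdh11, Aspn, Prelp and Optc were named after their values were seen. The members and lists were chosen with earlier results of these data known, among them the wide ranges of Ogn and of meningeal genes. The erythroid list had 1 gene ranging over more than 0.05 and gave no score.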

Additional observations from a re-analysis of the deposited data

Results flagged for a closer look

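Lum stood at 7.66 in noodle-diet rat 1, with the other 3 rats of its diet between 6.89 and 6.97, so that 1 rat lay far from its group by Dixon's criterion. This was 1 of 58 groups examined, over the 8 member probe sets, 10 cell type scores and the wide-ranging genes of the matrix lists, where chance gives about 2.9. The same rat was the highest of its diet in all 8 member probe sets.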

How the results depend on the processing

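Quantile normalization, centring arrays on their medians, a filter at the 20th percentile of the means, no intensity trend, array weights and robust eBayes each called 0 probe sets by limma (16 to 1155 at an unadjusted p under 0.05 over all settings), as did leaving out any rat (range 0 to 0) and an adjusted p under 0.10. Under those fits the member differences kept their signs, except that Ogn 1390450_a_at stood at -0.013 with array weights. With single rats left out the differences ran from -0.31 to 0.021 (Bgn), 0.027 to 0.35 (Dcn), -0.12 to 0.050 (Fmod), -0.019 to 0.24 (Lum), -0.30 to 0.30 (Ogn 1376749_at), -0.36 to 0.21 (1383263_at), -0.36 to 0.27 (1385248_a_at) and -0.29 to 0.19 (1390450_a_at). The cause was not tested. With z-scores, a median, quantile normalization, or collagen genes left out, the fibroblast score put the same 5 rats above its gap, at 35.2% to 46.3% of the range. With collagen genes alone it did so at 31.6%, under the limit for clusters. Dcn ordered 28 or 29 of 36 pairs under these scores and the other members 33 to 36. The planned Pearson and Spearman values against this score are not given because of the clusters. Correlations by rank, after quantile normalization and as deviations from diet means were added after seeing the data. Between Dcn, Lum, Fmod and Bgn, and with the endothelial and mural, astrocyte and oligodendrocyte scores, all kept their signs. The calls that changed there stand beside the values above. With the pituitary score, r as deviations from the diet means changed sign for Dcn (0.085 to -0.056) and Fmod (-0.0073 to 0.021). No paired analysis was possible because the diets share no rat number, and the labels, which state paired feeding, do not say which rats formed a pair. The number of arrays limits every value, and signal over background was not used here.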

Other observations

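Dcn relative to Bgn, the 2 class I genes, was nearly constant on the noodle diet and varied among controls. Dcn minus Bgn stood at 0.44, 0.41, 0.41 and 0.41 log2 units in noodle-diet rats 1, 4, 7 and 13, and at -0.44, 0.052, 0.0020, 0.50 and 0.25 in control rats 2, 5, 8, 11 and 14. Only its variation between rats can be read, since levels of different probe sets are not comparable. The noodle-diet values lie within the range of the controls. This was 1 of 6 such differences between Dcn, Lum, Fmod and Bgn, picked after the values were seen, and it was not tested.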
